A study of Mus musculus with 12 samples.

Results

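The genes described are 10 secreted modulators of Wnt signalling, Sfrp1, Sfrp2, Sfrp4, Frzb, Wif1, Dkk2, Dkk3, Rspo1, Rspo2 and Rspo3, taken by name from tables of 25655 genes each. All 10 were found in the muscle table and in the bone table. The study profiled PDGFRα+ mesenchymal cells of female mice by 3' mRNA sequencing, to look for targets of Esr1, the gene of estrogen receptor alpha, that bear on bone metabolism. Both tissues were sorted for PDGFRα+ cells without CD45 or CD31, and the muscle gate also left out Vcam1+ cells. Each tissue had 3 control and 3 knockout samples, 12 in all. Knockout samples of both tissues carried PDGFRα-CreER, an inducible Cre driven by the Pdgfra gene, and were Esr1flox/flox. Muscle controls 1 and 2 carried PDGFRα-CreER alone, and muscle control 3 was PDGFRα-CreER;Esr1flox/+. Bone control 1 was Esr1flox/flox without the Cre, and bone controls 2 and 3 carried PDGFRα-CreER alone. The labels give neither the age of the mice nor the induction, and whether each replicate is a different mouse is not stated.

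Wnt proteins bind Frizzled receptors together with the co-receptors LRP5 or LRP6 and so keep beta-catenin from being degraded. Secreted frizzled-related proteins (Sfrp1, Sfrp2, Sfrp4 and Frzb) and Wif1 bind Wnt proteins outside the cell, and the Dickkopf protein Dkk2 acts at the co-receptors. R-spondins raise the amount of receptor at the cell surface through LGR receptors and the ligases ZNRF3 and RNF43. Mesenchymal cells are a source of these proteins, and canonical Wnt signalling favours bone formation over fat in mesenchymal progenitors.

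Every group mean, log2 fold change, p and FDR of a gene below is the authors' own, from the authors' deposited table of that tissue. The group mean is the higher of a gene's means over knockout and over control samples, and its unit is not named in the file headers. By its definition it should be the knockout mean where the fold change is positive and the control mean where it is negative. Fold changes are knockout over control, so a positive value is higher in the knockout samples. The per-library columns carry codes that match no label and were not used, so no value per sample, standard deviation or depth is given, and whether groups overlap cannot be stated. The p-values rest on these samples alone, whose spread may be partly technical. The authors' test is not named, so how that spread was estimated is not known. In bulk samples, fewer cells of a type and less RNA per cell cannot be told apart. For the targeted gene, Esr1, the authors' deposited tables give log2 fold changes of 1.02 in muscle (p = 0.404) and -2.69 in bone (p = 0.245). The position of the floxed exons is not given and the tags come from transcript ends, so these values do not check the genotype labels.

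The muscle and bone tables held different sets of these genes. In all, 6 were listed above 0 in both tables, 2 in the muscle table only (Dkk2 and Rspo1) and 2 in the bone table only (Frzb and Rspo2). Across genes the order below is the order of the deposited score, whose relation to transcript length is not stated. By this larger mean, muscle cells were led by Sfrp2, at a group mean of 343 per the authors' deposited table, and Sfrp4, at 328. The signed folds of 2.49 for Sfrp2 and -1.28 for Sfrp4 make these a knockout and a control mean. By those folds Sfrp4 stood above Sfrp2 in control samples, and Sfrp2 above Sfrp4 in knockout samples. Dkk3 followed at 165, Sfrp1 at 116 and Dkk2 at 85.3 per the authors' deposited table. At the lower end of the authors' deposited table for muscle were Rspo1 (27.0), Wif1 (17.2) and Rspo3 (4.23). Of the 13158 muscle genes listed above 0, Sfrp2 stood 470th and Sfrp4 493rd from the top, within the top 3.57% and 3.75%. Bone cells were led by Wif1, at 177 per the authors' deposited table, which was 404th of 10518 genes listed above 0, within the top 3.84%. In muscle the same gene stood at the top 50.2%. The other bone values per the authors' deposited table were 29.9 for Sfrp4, 21.5 for Frzb, 10.9 for Dkk3, 6.96 for Sfrp1, 4.53 for Sfrp2, 2.93 for Rspo2 and 0.908 for Rspo3. By larger group mean Sfrp2 thus led the list in muscle and stood at the top 64.7% in bone. By sign, the Sfrp2 levels of both tissues are knockout means and the Wif1 levels of both are control means. Tissue, sorting gate and table cannot be told apart in these levels, and no test between tissues was made of them. Globin genes, 4 in number, held 58.4% of all group means summed in the bone table, against 0.338% in muscle. Pdgfra, the sorting marker, stood at the top 2.57% of the muscle table and the top 51.3% of the bone table.

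**Figure D1:**
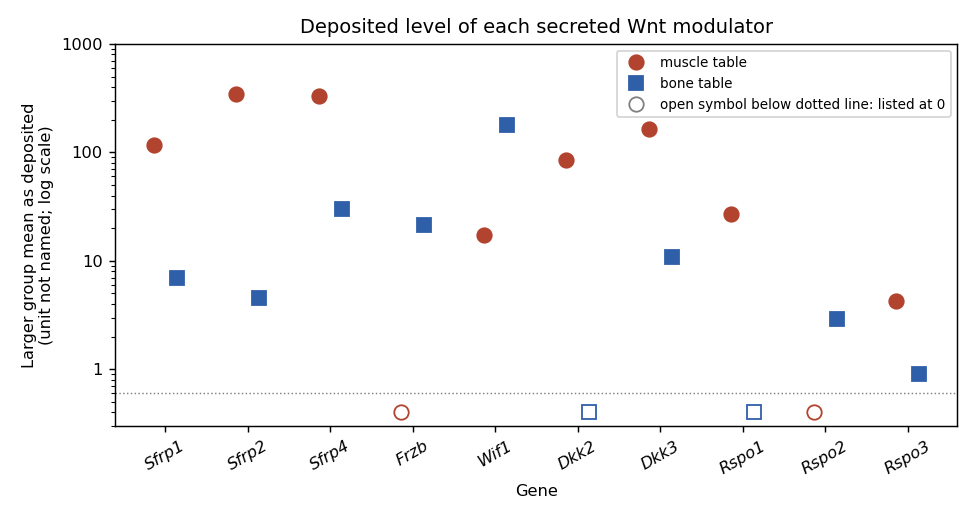
Larger group mean of each of the 10 genes per the authors' deposited tables (vertical axis, log scale, unit not named), with circles for muscle and squares for bone. Open symbols under the dotted line are genes listed at 0. A symbol shows a knockout mean for some genes and a control mean for others. By that larger mean Sfrp2 (343) and Sfrp4 (328) lead in muscle and Wif1 (177) leads in bone.

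The promoters of 2 genes are shown because Sfrp2 and Wif1 are the members of highest level in muscle and in bone, and each had an unadjusted p under 0.05 there. The sequences are RefSeq promoter windows on GRCm38.p6, shown 5′ to 3′ on the strand of the gene and ended before the first annotated exon base. Sfrp2 lies on the plus strand at chr3:83766071-83766320 (250 bases) and Wif1 on the plus strand at chr10:121033754-121033959 (206 bases). Capitals mark GGTCA, one arm of the estrogen response element, read on either strand.
Sfrp2: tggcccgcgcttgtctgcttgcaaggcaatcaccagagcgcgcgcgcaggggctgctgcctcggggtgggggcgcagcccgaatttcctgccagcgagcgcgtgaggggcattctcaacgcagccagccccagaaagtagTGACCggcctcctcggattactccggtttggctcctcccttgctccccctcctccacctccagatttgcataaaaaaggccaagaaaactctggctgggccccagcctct
Wif1: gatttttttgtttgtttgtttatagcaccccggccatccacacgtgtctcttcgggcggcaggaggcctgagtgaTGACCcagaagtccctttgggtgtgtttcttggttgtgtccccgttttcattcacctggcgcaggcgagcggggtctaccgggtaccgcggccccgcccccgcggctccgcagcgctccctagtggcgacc
Each window held 1 match to GGTCA, on the minus strand, starting at base 141 in Sfrp2 and base 76 in Wif1. Of 32851 RefSeq promoter windows of the same length, 35.2% held it at 250 bases and 30.2% at 206 bases, so a match is common. The whole palindromic element, GGTCA and TGACC with any 3 bases between them, was found in neither window and in 0.0639% and 0.0517% of all windows. The TCF/LEF word CTTTGAT, the site of the transcription factors that act with beta-catenin, was found in neither window, against 3.21% and 2.72% of all windows. Promoter windows were matched by symbol for 5 of the 10 genes (Sfrp2, Frzb, Wif1, Dkk2 and Rspo1). A match is a description of letters and not of binding.

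In muscle, Sfrp2 was the member with the smallest p, and none of the genes passed the test. Sfrp2 (ENSMUSG00000027996, chromosome 3, 83766321 to 83774316 on GRCm38, plus strand), a Wnt-binding antagonist made by fibroblasts and progenitors, was 2.49-fold higher in knockout samples by the authors' deposited table (1.32 on the log2 scale, p = 0.00125, FDR = 0.221). It had the 40th smallest p of 13158 genes. Of the 470 muscle genes at or above its level, 2 had a positive log2 fold change of at least this size, Sfrp2 itself and the cross-linking enzyme gene Loxl1 (1.32), and 7 had a p as small per the authors' deposited table. The genes with a smaller p at or above its level were Col1a2, Igfbp5, Lars2, Col14a1, Id2 and Col1a1, with log2 fold changes of 1.27, 1.23, -1.32, 1.28, -1.29 and 0.86 per the authors' deposited table. In the same comparison 12 of the 14 mesenchymal stromal markers had a positive value, with a median of 0.54, a summed group mean of 35761 and none listed at 0. Over all muscle genes with a p, 53.5% had a positive value and the median was 0.12. The part of these markers' cells in the Sfrp2 value was not tested. At its end, chromosome 3, 83773853 to 83774316, Sfrp2 overlaps the antisense gene Gm26771. Whether counting used strand is not stated, so reads of this pair may not be told apart and the Sfrp2 value is uncertain to that extent.

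No other antagonist of the frizzled-related or WIF type had a p under 0.05 in muscle. Sfrp1 (ENSMUSG00000031548, chromosome 8, 23411502 to 23449632, plus strand) stood at 0.01 on the log2 scale per the authors' deposited table (p = 0.983). Sfrp4 (ENSMUSG00000021319, chromosome 13, 19623104 to 19632994, plus strand), with a larger group mean near that of Sfrp2, had -0.36 per the authors' deposited table (p = 0.517). The difference between Sfrp2 and Sfrp4 in response was not tested. Wif1 (ENSMUSG00000020218, chromosome 10, 121033960 to 121100650, plus strand), the Wnt inhibitory factor, had -1.17 per the authors' deposited table (p = 0.553). Frzb (ENSMUSG00000027004, chromosome 2, 80411970 to 80447625, minus strand), a frizzled-related protein known from cartilage, was listed at 0 per the authors' deposited table for muscle.

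Neither Dickkopf gene had a p under 0.05 in muscle. Dkk2 (ENSMUSG00000028031, chromosome 3, 132085292 to 132180304, plus strand), a ligand of the LRP5 and LRP6 co-receptors, had 0.18 per the authors' deposited table (p = 0.784). Dkk3 (ENSMUSG00000030772, chromosome 7, 112116017 to 112159057, minus strand), a divergent Dickkopf protein, had 0.32 per the authors' deposited table (p = 0.623).

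The R-spondins had the largest muscle values, at low levels. Rspo1 (ENSMUSG00000028871, chromosome 4, 124986430 to 125009099, plus strand) stood at 3.07 on the log2 scale per the authors' deposited table (p = 0.0685, FDR = 0.901). The last 500 bases of its annotated transcripts share 31-base words with transcripts of 2709 other genes. Reads there may not be unique, so the Rspo1 value is uncertain. The antisense gene Gm12930 overlaps its start, away from the transcript ends that the tags come from. Rspo3 (ENSMUSG00000019880, chromosome 10, 29452416 to 29535867, minus strand) had -6.56 per the authors' deposited table (p = 0.0336, no FDR given). Adjusted over all muscle genes with a p by the Benjamini-Hochberg method, Rspo3 had 0.419 and Sfrp2 0.408. The 346 other muscle genes within 10% of the Rspo3 level ran from -6.65 to 6.64, and 47 of them (13.6%) lay within 0.5 of its value, with p from 0.0305 to 0.0458. Rspo3 therefore sat at the lower edge of the values that genes of its level took. A gene with almost no reads in a group could lie at such an edge. The group levels were not examined, so the deposited value is no estimate of size. Rspo3 also overlaps Gm20276 on its own strand, listed at 0 in both tables, and at its start the antisense gene Gm48159. The last 500 bases of its annotated transcripts share 31-base words with 0 other genes. Only reads away from those ends may therefore not be its own. Rspo2 (ENSMUSG00000051920, chromosome 15, 43020794 to 43170826, minus strand) was listed at 0 per the authors' deposited table for muscle.

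Counted together, 8 of the 10 genes had a p in muscle and 7 an FDR. By the authors' FDR of 0.05, 0 of these 7 passed, and 0.127% of the 7107 muscle genes with an FDR did, 0.0563% higher and 0.0704% lower. At an unadjusted p under 0.05 there were 2, Sfrp2 higher and Rspo3 lower in the knockout samples, where 11.7% of all 13158 genes had such a p, 6.41% higher and 5.31% lower. With 2 of 8, the count is read against that share and is no result about the list. The log2 fold changes of the 8 genes ran from -6.56 to 3.07 with a median of 0.09 per the authors' deposited table, beside a median of 0.12 for all muscle genes with a p.

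**Figure D2:**
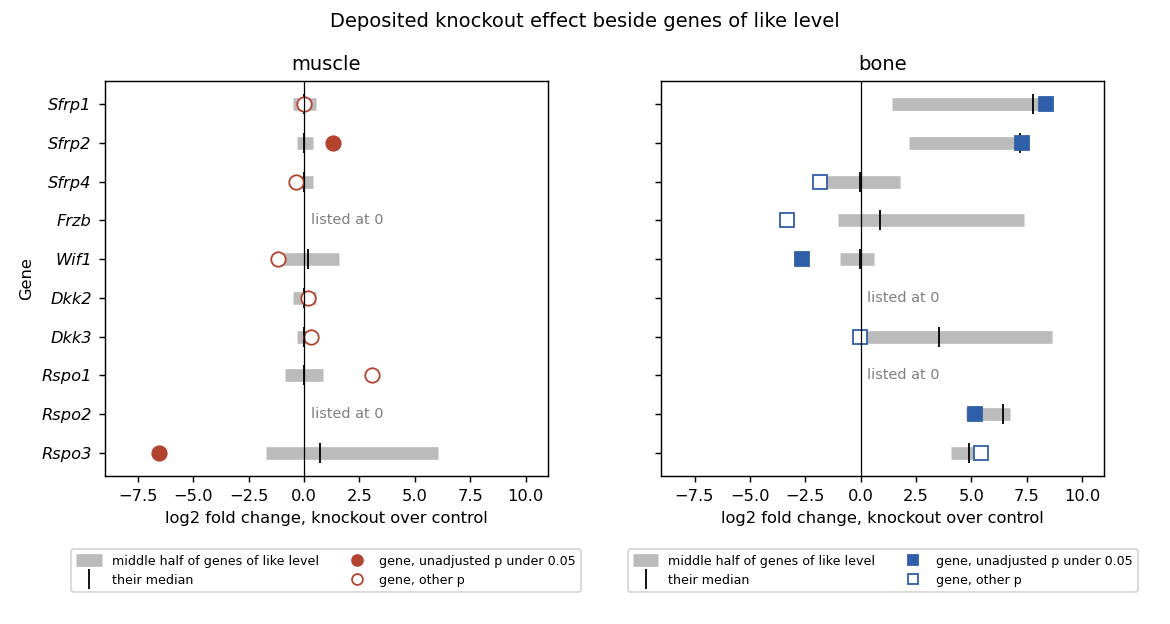
Log2 fold change, knockout over control, of each gene per the authors' deposited tables for muscle (circles) and bone (squares), with filled symbols at an unadjusted p under 0.05. Grey bars are the interquartile range and black ticks the median of the genes in the same decile of group mean. Sfrp2 in muscle (1.32) and Wif1 in bone (-2.65) lie outside their bars, and Sfrp2 in bone (7.27) lies near its tick (7.19).

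In bone, the direction of these genes went with their level, and over the whole table genes of low level were mostly higher. The 4 genes of lowest level, Sfrp1, Sfrp2, Rspo2 and Rspo3, had positive log2 fold changes, and the 4 of highest level, Wif1, Sfrp4, Frzb and Dkk3, had negative ones. In the level deciles of the first 4, 84.5% to 88.5% of all bone genes were higher. In those of the other 4, the share was 49.2% for Wif1, 49.0% for Sfrp4, 61.3% for Frzb and 75.5% for Dkk3. The positive values of the first 4 are thus not particular to these genes. Frzb and Dkk3 stood on the other side from most genes of their level, neither with a p under 0.05. By the authors' FDR of 0.05, 0 of the 7 genes with an FDR passed, and 0.0352% of the 8534 bone genes with an FDR did, 0.0234% higher and 0.0117% lower. At an unadjusted p under 0.05 there were 4, with 3 higher and 1 lower, where 33.0% of all 10518 bone genes had such a p, 28.8% higher and 4.20% lower. The median over the 8 genes was 2.57, beside 2.51 over all bone genes with a p.

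Wif1 was the member with the highest bone level and had a lower value in knockout samples. The authors' deposited table gives it as 6.28-fold lower (-2.65 on the log2 scale, p = 0.0318, FDR = 0.0993). Of the 404 bone genes at or above its level, 7 had a log2 fold change at or below this value, Wif1 among them, and 20 had a p as small. The other genes at or below it were Pigk, Gm2174, Gm10718, Gas1, Slc25a4 and the cartilage collagen gene Col9a1, at -8.14, -4.59, -2.93, -2.76, -2.71 and -2.69 per the authors' deposited table. The 1052 genes in its decile of level had quartiles of -0.94 and 0.59 and a median of -0.02. Adjusted over bone genes with a group mean of at least 50 alone, Wif1 had a Benjamini-Hochberg p of 0.465.

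Frzb had -3.34 in bone per the authors' deposited table (p = 0.165, FDR = 0.320). Sfrp4 had -1.84 per the authors' deposited table (p = 0.441) and Dkk3 -0.03 (p = 0.990). Dkk3 was nearly level between the groups while genes in its decile had a median of 3.54. Frzb lay below the lower quartile of its decile (-1.02), and Sfrp4 lay just below its own (-1.78). In the same comparison all 6 chondrocyte markers had negative values, with a median of -0.997, a summed group mean of 3924 and none listed at 0. None of the 6 had a p under 0.05. All lay in the top decile of level, where 49.2% of genes were higher, 5.51% had such a p and the median was -0.02. Of 7 osteoblast markers, 5 had positive and 2 negative values (median 1.07, summed group mean 650, none at 0). Over all bone genes with a p, 69.7% had a positive value and the median was 2.51. The part of such cells in the values of Wif1, Frzb and Sfrp4 was not tested.

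The bone values of Sfrp1 and Sfrp2 were large, as were those of many genes of their level. Sfrp1 stood at 8.35 on the log2 scale per the authors' deposited table (p = 0.0111, FDR = 0.0784). Among 440 other bone genes within 10% of its level, the median was 7.82 and 207 (47.0%) lay within 0.5 of its value. Sfrp2 had 7.27 per the authors' deposited table (p = 0.0252, FDR = 0.0913). Among 382 other genes within 10% of its level, the median was 7.29 and 241 (63.1%) lay within 0.5 of its value, with p from 0.0151 to 0.0337. Against the medians of their deciles of level, Sfrp1 stood 0.59 and Sfrp2 0.08 higher on the log2 scale. Sfrp1 lay above the upper quartile of its decile (8.11), and Sfrp2 lay below its own (7.497). As for Rspo3 in muscle, these large values are no estimates of size.

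Rspo2 and Rspo3 had positive values in bone at still lower levels. Rspo2 had 5.18 per the authors' deposited table (p = 0.0418, FDR = 0.112), under the median of 6.42 of its decile. Because its transcript ends share 31-base words with 158 other genes, the Rspo2 value is uncertain. Rspo3 had 5.44 per the authors' deposited table (p = 0.0827, no FDR given), beside a decile median of 4.87, and 75 of 112 other genes within 10% of its level (67.0%) lay within 0.5 of it. In its decile, from 0.405 to 1.59, no gene of 1052 had p under 0.05 (0%). From 1.60 to 3.34, the decile of Rspo2, the share was 59.2%. Dkk2 and Rspo1 were listed at 0 per the authors' deposited table for bone. In the same comparison all 10 neutrophil markers were higher (median 3.39, summed group mean 12321, none at 0), where 69.7% of all bone genes with a p were. Their part in the values of Sfrp1, Sfrp2, Rspo2 and Rspo3 was not tested. Neutrophils carry CD45 and the sort kept cells without it, yet the markers were listed at the summed level above. Whether such cells remained after sorting was not tested.

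At a looser FDR of 0.1, 3 of the 7 genes passed in bone, Sfrp1, Sfrp2 and Wif1, where 32.2% of all 8534 genes passed. In muscle 0 of 7 passed at that threshold, where 0.183% of 7107 genes did. The bone share of 3 in 7 stands beside a background of nearly 1 in 3 and is not a result about these genes.

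**Figure D3:**
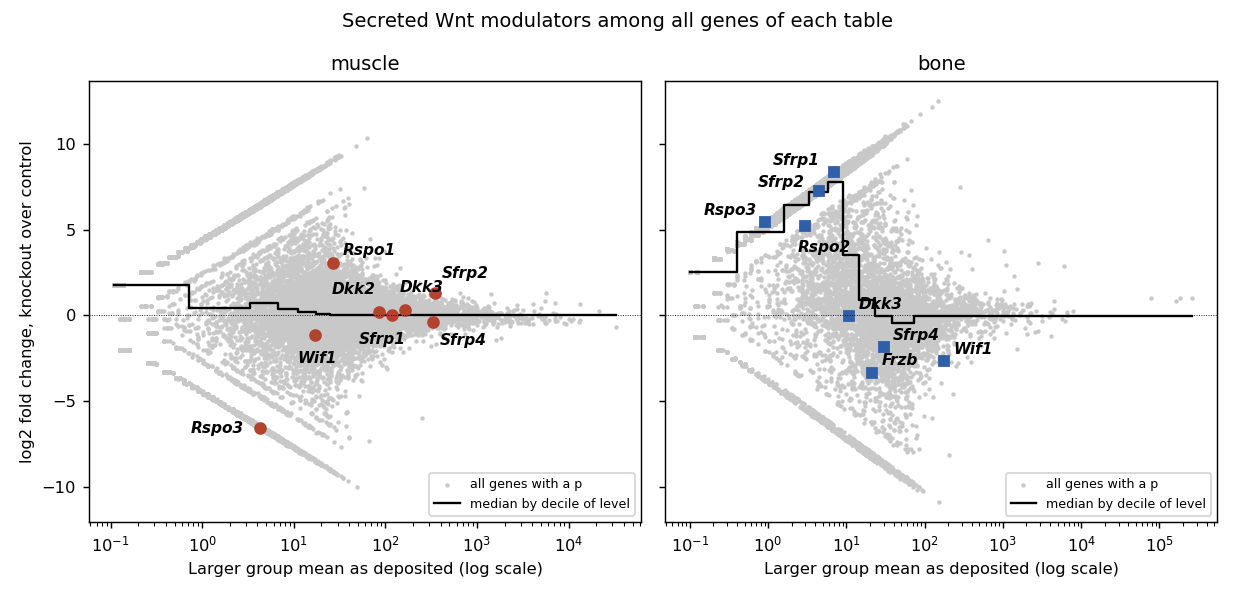
Log2 fold change, knockout over control (vertical axis) against the larger group mean (horizontal axis, log scale) for all genes with a p per the authors' deposited tables (grey), with the median in each decile of level as a black line and the named genes in colour. Diagonal bands at the upper and lower edges hold genes whose value follows their level. Sfrp1, Sfrp2 and Rspo3 in bone and Rspo3 in muscle lie on such bands, and Sfrp2 in muscle and Wif1 in bone do not.

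The knockout values of the 2 tissues were set against each other for the 6 genes with a p in both. Of these, 4 had the same direction and 2 the opposite one (Dkk3 and Rspo3). No control samples are shared between the tissues. The error of each effect was recovered from the log2 fold change and p of the authors' deposited table, and the difference was tested with a normal approximation over 9598 genes. With so few samples a group this approximation is rough, and its p-values are not exact. After Benjamini-Hochberg adjustment 0 of the 9598 genes passed at 0.05 (0%), and 24.6% had an unadjusted p under 0.05. For Rspo3 the muscle minus bone difference was -12.00 on the log2 scale, the lowest of the 6. For Sfrp1 it was -8.33, the gene being at 0.01 in muscle and 8.35 in bone per the authors' deposited tables. Sfrp2 differed by -5.95, and Sfrp4, Wif1 and Dkk3 by 1.48, 1.48 and 0.35. None of the 6 differences passed, and the 6 adjusted values ran from 0.101 for Rspo3 to 0.963 for Dkk3. A miss of this kind is no evidence of equal effects. With each effect taken relative to the median of its table, the differences were -9.60 for Rspo3, -5.94 for Sfrp1 and -3.55 for Sfrp2. On that scale Sfrp4, Wif1 and Dkk3 differed by 3.88, 3.87 and 2.75, and again none of the 6 passed. The differences of Rspo3, Sfrp1 and Sfrp2 rest on large values at low levels that are no estimates of size. On either scale these differences are therefore no estimates of size.

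The rest of the pathway was read from 6 further lists. No gene of any of them passed the authors' FDR of 0.05 in either tissue. Among the other secreted modulators, 6 of 10 were listed at 0 in muscle and 5 in bone, including the Wnt antagonist genes Dkk1 and Sost in both tissues. Igfbp4, a secreted IGF-binding protein that also acts on Wnt receptors, had a group mean of 1160 in muscle and log2 fold changes of 0.19 in muscle (p = 0.525) and 1.502 in bone (p = 0.229) per the authors' deposited tables. Notum, a secreted enzyme that inactivates Wnt proteins, had 6.38 in bone per the authors' deposited table (p = 0.0490) at a level of 2.58. Dkkl1, a Dickkopf-like gene, had 6.73 in muscle per the authors' deposited table (p = 0.0413) at a level of 4.88. As for Rspo3 in muscle, the Notum and Dkkl1 values are no estimates of size. The remaining R-spondin gene, Rspo4, was listed at 0 in muscle and had -2.03 in bone per the authors' deposited table (p = 0.386), at a level of 13.6.

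Of 21 ligand and export genes, 10 had a p in muscle (4 with an FDR, 0 passing) and 6 in bone (3 with an FDR, 0 passing). At p under 0.05 there were 2 in each tissue, all higher in knockout samples, where 6.41% of all muscle genes and 28.8% of all bone genes were. In muscle these were the ligand genes Wnt7b (7.54) and Wnt10b (7.57), with p of 0.0203 and 0.0205 and levels of 9.67 and 9.94 per the authors' deposited table. In bone they were Wls, the gene of the Wnt export protein (9.46, p = 0.00317), and the ligand gene Wnt11 (8.003, p = 0.0147) per the authors' deposited table. Wls and Wnt11 stood at levels of 18.2 and 8.03. As for Rspo3 in muscle, these large values of both tissues are no estimates of size. Among the Wnt genes themselves Wnt5a had the highest muscle level, at 51.9 with a log2 fold change of 0.54 per the authors' deposited table (p = 0.587).

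Of 18 receptor and co-receptor genes, 16 had a p in muscle, 12 with a positive value, and 14 in bone, 11 with a positive value. Over all genes with a p, 53.5% had a positive value in muscle and 69.7% in bone. Muscle Lrp4, a co-receptor that presents sclerostin, had -7.38 per the authors' deposited table (p = 0.000550, FDR = 0.150) at a level of 27.3. Ror2, a receptor of Wnt5a, had -4.33 in muscle per the authors' deposited table (p = 0.0403). These 2 were the muscle receptors with p under 0.05, both lower, and 5 bone receptors had such a p, all higher. Over all genes 11.7% had such a p in muscle and 33.0% in bone, where 28.8% were higher, so these counts are no result about receptors. Bone Lrp6, Fzd5 and Fzd10 had 9.33, 8.78 and 8.31 per the authors' deposited table (FDR = 0.0784 for each). Their levels were 14.4, 10.4 and 8.55, in deciles with upper quartiles of 8.64, 8.64 and 8.11. These values, and that of Lrp4 in muscle, are no estimates of size. Medians over the list were 0.61 in muscle and 5.53 in bone, beside 0.12 and 2.51 over all genes.

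Receptors and ligases through which R-spondins act were few. Of 5 genes, Lgr5 and Rnf43 were listed at 0 in both tissues. Lgr4 had 3.22 in muscle (p = 0.0467) and 6.97 in bone (p = 0.0353) per the authors' deposited tables. Lgr6 had -8.05 in muscle (p = 0.0127) and 0.64 in bone (p = 0.779) per the authors' deposited tables. The ligase gene Znrf3 had -3.89 in muscle (p = 0.110) and 3.89 in bone (p = 0.172) per the authors' deposited tables. In muscle Lgr6 stood at a level of 12.6 and Znrf3 at 4.10, neither with an FDR, and their values are no estimates of size. In bone Lgr4 stood at 3.92 and Znrf3 at 0.303, and those values are no estimates of size either. At p under 0.05 there were 2 of 3 genes in muscle and 1 of 3 in bone. Over all genes 11.7% had such a p in muscle and 33.0% in bone, and with 3 genes these counts are no result about the list.

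Inside the cell, all 23 transducer genes were listed above 0 in muscle, and 17 were in bone. In muscle 9 had a positive and 14 a negative value, none with p under 0.05, and the list median was -0.09. Over all muscle genes with a p, 53.5% had a positive value, 11.7% had p under 0.05 and the median was 0.12. Ctnnb1, the gene of beta-catenin, had -0.09 in muscle at a level of 343 per the authors' deposited table (p = 0.798). The smallest muscle p belonged to Lef1 (4.30, p = 0.160), Tcf7 (-3.29, p = 0.218) and Axin1 (1.27, p = 0.225) per the authors' deposited table. In bone 15 of 17 had a positive value and 3 had p under 0.05, Tle5, Apc and Pygo2, at 10.25, 9.43 and 8.44 per the authors' deposited table (FDR = 0.0784 for each). Over all bone genes 69.7% had a positive value and 33.0% had such a p. Tle5, Apc and Pygo2 stood at levels of 35.7, 18.3 and 8.91, and their large values are no estimates of size.

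Of 22 target genes, 7 of which also stand on the lists above, 18 had a p in muscle with a median of 0.18 and 10 in bone with a median of 3.82. The medians over all genes were 0.12 and 2.51. At p under 0.05 there were 2 of 18 in muscle and 3 of 10 in bone, where 11.7% and 33.0% of all genes had such a p. These counts are no result about target genes. Axin2, a feedback inhibitor and a widely used readout of canonical signalling, had 6.20 in muscle at a level of 3.82 per the authors' deposited table (p = 0.0618) and was listed at 0 in bone. Tnfrsf11b, the gene of the osteoclast inhibitor osteoprotegerin, had -7.91 in muscle per the authors' deposited table (p = 0.0141) at a level of 12.1. Cd44, a cell surface glycoprotein gene, had 0.79 in muscle at a level of 344 per the authors' deposited table (p = 0.0493). Bone target genes with p under 0.05 were Ccnd1, Myc and Notum. The cell cycle gene Ccnd1 and the growth regulator Myc had 6.75 (p = 0.0112) and 6.89 (p = 0.0322) in bone per the authors' deposited table, at levels of 12.5 and 2.83. As for Rspo3 in muscle, large values at such low levels are no estimates of size.

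**Figure D4:**
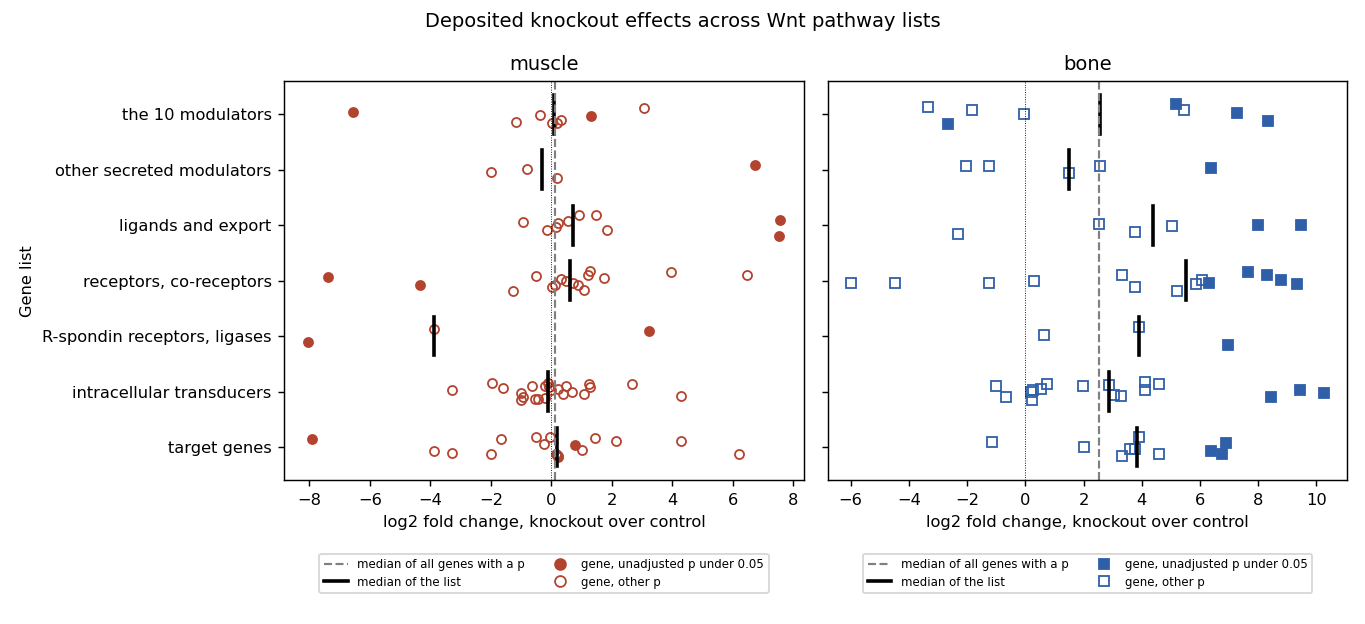
Log2 fold change, knockout over control, of every gene with a p on the 7 Wnt lists (rows) per the authors' deposited tables for muscle (circles) and bone (squares), with filled symbols at an unadjusted p under 0.05. Solid ticks are list medians, and dashed lines the medians of all genes (0.12 in muscle and 2.51 in bone). Vertical scatter within a row only separates the points. In muscle the R-spondin receptors and ligases, with 3 genes, have the median (-3.89) farthest from the dashed line.

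The ontology terms carried by the tables give a wider view of what the 10 genes share. All 10 bear the term Wnt signaling pathway, as do 218 genes in all, and 182 of these had a p in muscle and 153 in bone. None of the 218 passed the authors' FDR of 0.05 in either tissue. Their medians per the authors' deposited tables were 0.21 in muscle and 2.89 in bone, beside 0.12 and 2.51 for all genes. At p under 0.05, 11 were higher and 9 lower in muscle, and 44 were higher and 5 lower in bone. Over all genes the shares were 6.41% higher and 5.31% lower in muscle, and 28.8% higher and 4.20% lower in bone, so the bone counts are near the background. Terms that differ in sign overlapped on these genes. The negative regulation of canonical Wnt signalling was noted for 6 of the 10 (Sfrp1, Sfrp2, Sfrp4, Frzb, Dkk2 and Dkk3) and its positive regulation for 7 (Sfrp1, Sfrp2, Sfrp4, Dkk2, Rspo1, Rspo2 and Rspo3). Positive regulation of fat cell differentiation was noted for 4, Sfrp1, Sfrp2, Frzb and Wif1, of 54 genes with that term. Sfrp1 and Sfrp2 also bore negative regulation of BMP signalling, as did 55 genes in all.

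The summed levels of markers of other cells were read in each table. In muscle the 7 endothelial markers summed to a group mean of 58.3, and the 7 satellite cell markers to 177 with Pax7, Myf5 and Cdh15 listed at 0. The 8 mural markers summed to 753 in muscle and 37.4 in bone, and the 5 tendon markers to 685 and 364, with 3 of each list at 0 in bone. In bone the 9 erythroid markers summed to 687558 and the 14 mesenchymal stromal markers to 2364. The part of any of these cells in the values of the 10 genes was not tested.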

How the data were processed

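Per the labels' protocols, libraries of sorted PDGFRα+ cells were made with a QuantSeq kit, which reads mRNA 3' ends. The submitters' processing notes name GRCm38 and mm10, with aligner, counting method and statistical test not given in the sources used here. Deposited tables hold the authors' log2 fold changes, p-values (with FDR and Bonferroni p) and, as scores of unnamed unit, the larger group mean and the signed fold. Another 48 columns of per-library values match no label and were not used, so the planned count tests were not run and the authors' comparison was used, a gene being called at FDR under 0.05.

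Ranks, deciles of group mean, Benjamini-Hochberg adjustments and the test between tissues were computed over all genes with a p (Python 3.11.15, pandas 2.3.3, scipy 1.17.1). The last was run on simulated data drawn under the same normal approximation. That run cannot check the approximation for few samples or for genes nearly absent from a group. The 10 genes and all lists were chosen with earlier results of these data known. Named are the 10 genes, Esr1, Igfbp5, Pdgfra, up to 3 genes of smallest p per Wnt list and tissue, and, chosen after their values were seen, Wnt5a, Ctnnb1, Rspo4, markers and list genes listed at 0 (Dkk1, Sost, Lgr5, Rnf43, Pax7, Myf5, Cdh15) and genes beside Sfrp2 and Wif1. The deposited start differed from GENCODE M21 on GRCm38 for all 10 genes while the length was equal, so coordinates are those of GENCODE M21, matched by Ensembl ID.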

Additional observations from a re-analysis of the deposited data

How the results depend on the processing

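No paired analysis was possible because the per-library columns carry no replicate number or label, and for the same reason leaving out replicates, DESeq2 and count filters were not run. None of the 10 genes passed in muscle under any of the 4 other adjustments or thresholds. In bone 0 passed under 3 of them and 3 at FDR under 0.1. Over all genes, the 9 muscle calls became 4 by the Bonferroni p. The 3 bone calls became 1 by the Bonferroni p, 2751 at FDR under 0.1 and 10 among genes with a group mean of at least 50. Taken relative to the table median, Sfrp1 in muscle changed from 0.01 to -0.11. Relative to the median of its decile, Rspo2 in bone changed from 5.18 to -1.24. The other 15 of 16 values kept their sign in each of these centrings. With each effect taken relative to its table median, 227 of 9598 genes differed between tissues against 0, none of them among the 10. Among 1129 genes with a group mean of at least 50 in both tables, 0 differed and 52 had p under 0.05. Ranks were the same among genes with a p. Depth is unknown, so what it limits cannot be given.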
